A study of Dahlia pinnata with 6 samples.

Results

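miR164 and miR394 are a pair of plant microRNAs known for their roles at organ boundaries and in the shoot meristem, and they were read here in the petals of a bicolor dahlia. The members were the 2 rows named exactly miR164 and miR394 in a table of 47083 rows, of which 116 carried microRNA names and 46967 were contigs of a Trinity transcript assembly. Small RNA came from Yuino, a dahlia whose petals have a pigmented red region and an unpigmented white region. The regions were cut apart, and 3 libraries were made from the red part and 3 from the white part of greenhouse plants of this 1 genotype. The plants' age is not given in the labels. The series asked whether flavonoid compounds hold back DCL4, a Dicer-like protein of plants that makes siRNAs from double-stranded RNA. The labels do not tie libraries to separate plants, so p-values speak to how far these libraries scatter, and part of that scatter may be technical.

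A plant microRNA is a short RNA, cut from a hairpin precursor by DCL1, that guides an Argonaute protein to matching messenger RNAs. In Arabidopsis miR164 directs cleavage of NAC transcription factor transcripts that include the CUP-SHAPED COTYLEDON genes CUC1 and CUC2, which keep neighbouring organs apart, and loss of 1 of its loci gives flowers with extra petals. In Arabidopsis miR394 acts on the F-box gene LEAF CURLING RESPONSIVENESS, and it moves from the outermost cell layer of the shoot tip inward, where it keeps the cells below able to be stem cells. The table pairs no sequence with the names, and no sequence of either microRNA was used here. MicroRNA names in the table ran to at most 6 characters, so reads of longer family numbers that begin with the same digits could stand in the miR164 and miR394 rows. Whether they do was not tested, and the same limit holds for the other microRNA-named rows.

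Libraries held 3277753 to 3662222 tabulated reads, of which 124111 to 174240 were in rows with microRNA names. These are totals of the deposited table, and the depth of the sequenced libraries is not given in the sources used here. No row was at 0 in red replicate 1, while the other libraries had 11093 to 12808 rows at 0. A fit with no filter on low counts thus holds only rows with reads in this red library. The median log2 fold change of white against red was -0.13 in that fit and -0.01 in the main fit. Both members had reads in all 6 libraries. MicroRNA-named rows took at least 4.51% of the reads in every red library and at most 3.87% in every white one, so a share of microRNA reads is on another scale than the normalised counts, and both are given. The files name no batch, and contigs carry no gene names by which cell types could be checked.

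Both microRNAs had few reads next to the most abundant microRNA-named rows. miR164 was the 16th and miR394 the 21st of the 116 microRNA-named rows by mean normalised count over the 6 libraries, with 35.6 and 15.1 CPM (read counts brought to a common library size after TMM scaling, which balances the bulk of rows between libraries). The most abundant row, miR396, stood at 18032 CPM. The order is one of reads and not of molecules, and how reads relate to molecules was not tested. In red, miR164 ranked 17 and miR394 ranked 21, and in white they ranked 17 and 25. The 116 names include let-7 and bantam, and whether each named row holds a dahlia microRNA was not tested.

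**Figure D1:**
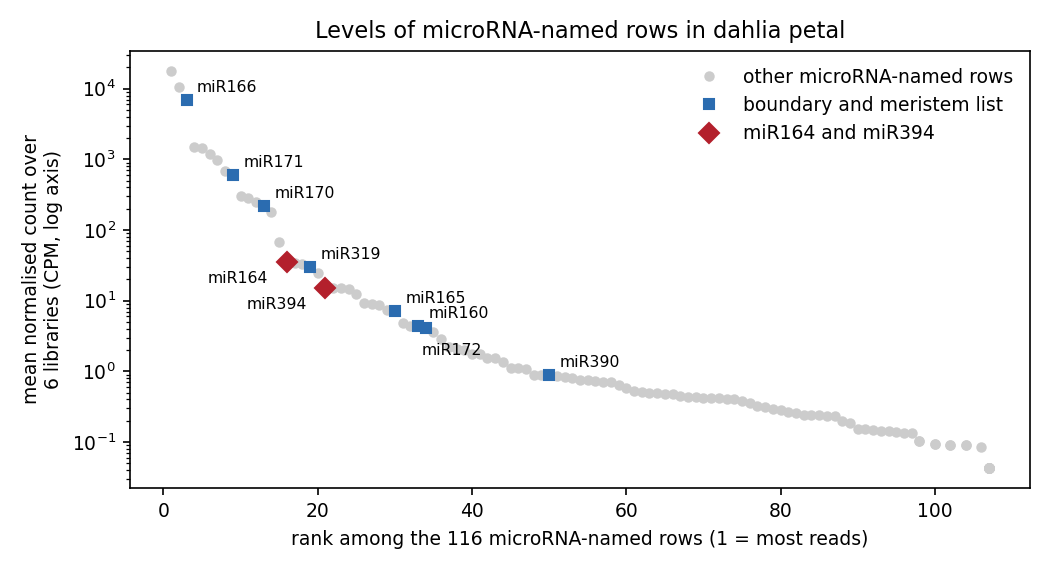
Mean normalised count over 6 libraries (CPM, log axis) of each of the 116 microRNA-named rows against its rank. Diamonds mark miR164 at rank 16 (35.6 CPM) and miR394 at rank 21 (15.1 CPM), and squares mark the other microRNAs of the boundary and meristem list, which run from miR166 at rank 3 to miR390 at rank 50.

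The rows next to miR164 in this order did not all stand clear of it. Above it were miR395 at 182.4 CPM and miR-99 at 68.3 CPM. All 6 libraries of miR-99, at 54.4 to 79.2 CPM, lay above the 51.1 CPM that was the highest value of miR164. Below it came miR399 at 34.3 CPM and miR-27 at 32.6 CPM. miR399, a microRNA of phosphate starvation, ranged from 20.6 to 54.9 CPM, which spanned the whole range of miR164. The mean of miR-27 rested on red replicate 1, with 694 reads against 2 to 21 in the other libraries.

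Around miR394 the order was closer. miR319 at 29.8 CPM and miR371 at 24.4 CPM came above it, and miR894 at 15.0 CPM and miR611 at 14.9 CPM below it. The 6 libraries of miR394 ran from 8.03 to 25.5 CPM, a range that overlapped those of all 4 of these rows, so its place among them is not fixed beyond the spread between libraries.

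miR164 had fewer reads in each white library than in each red one. The red libraries held 173, 121 and 175 reads for replicates 1, 2 and 3, and the white libraries 94, 61 and 111. In normalised counts these were 44.6, 35.2 and 51.1 CPM in red and 27.9, 22.0 and 33.0 CPM in white. Every white library thus lay below every red one, but white replicate 3 and red replicate 2 were close, and their exact Poisson 95% intervals, 91.3 to 133.7 and 100.4 to 144.6 reads, overlapped. These intervals cover counting error only. In tissue libraries such as these, fewer cells that hold a microRNA and less of it per cell cannot be told apart.

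The mean of miR164 was 43.6 ± 8.0 CPM in red and 27.6 ± 5.5 CPM in white (SD, n = 3 each), a red mean 1.58 times the white one. The log2 fold change of white against red was -0.65 ± 0.21 SE with a 95% interval from -1.10 to -0.21, and it did not pass over the 7001 tested rows (edgeR's quasi-likelihood test, Benjamini-Hochberg adjusted p = 0.17). The raw read counts had an SD of 30.6 in red and 25.4 in white, where Poisson counting would give 12.5 and 9.42. Raw counts are not corrected for library size, so differences in size enter this spread.

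miR394 was also lower in each white library than in each red one. It was counted 99, 48 and 64 times in red replicates 1, 2 and 3, and 39, 36 and 27 times in the white ones. Normalised, the red libraries stood at 25.5, 14.0 and 18.7 CPM and the white libraries at 11.6, 13.0 and 8.03 CPM. Red replicate 1 was the highest by a margin, and red replicate 2 was only just above white replicate 2. The Poisson intervals of that pair, 35.4 to 63.6 and 25.2 to 49.8 reads, overlapped widely.

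The mean of miR394 was 19.4 ± 5.8 CPM in red and 10.9 ± 2.6 CPM in white (SD, n = 3 each), a ratio of 1.78. Its log2 fold change was -0.84 ± 0.28 SE, with a 95% interval from -1.46 to -0.23, and it did not pass either (edgeR adjusted p = 0.21). In red the raw counts had an SD of 26.1 against 8.39 from Poisson counting, and in white 6.25 against 5.83. These counts are likewise not corrected for library size, so the near match in white does not show a spread of counting error alone. The white mean rests on 102 reads in all 3 libraries together, and the red mean on 211.

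**Figure D2:**
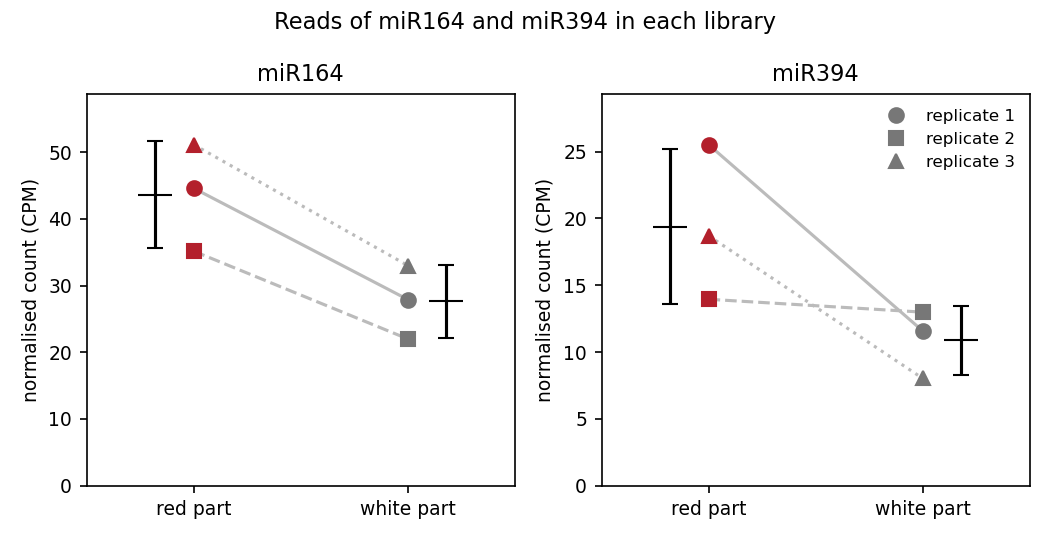
Normalised counts (CPM) of miR164 and miR394 in each library, with grey lines joining red and white libraries of the same replicate number and black bars giving the mean and SD of 3 libraries. All white values lie below all red ones, by a narrow margin between red and white replicate 2 for miR394 (14.0 and 13.0 CPM).

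Of the 2 members, 0 passed at an adjusted p under 0.05 in the main edgeR test, where 1.06% of all tested rows passed and 0.528% passed as lower in white. Both had an unadjusted p under 0.05, at 0.0078 for miR164 and 0.011 for miR394, as did 12.5% of the tested rows, and 6.28% in the direction of the members. DESeq2 likewise called 0 of them, with unadjusted p-values of 0.011 for each. It called 122 of all rows, and it gave no adjusted p for 41080 of the 47083. Libraries of the parts did not overlap in 17.8% of tested rows, with white lower in 8.84%. Among the 34 microRNA-named rows that were tested, white was lower without overlap in 20.6%, that is in 7 rows that include both members.

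The members' fold changes were among the lower ones of the table. Of the 7001 tested rows, 7.08% had a lower log2 fold change than miR164 and 2.93% a lower one than miR394. Among the 34 tested microRNAs, 8 had a lower value than miR164 and 2 a lower value than miR394. The median log2 fold change was -0.18 over these 34 and -0.01 over all tested rows.

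Same-numbered red and white libraries were correlated over the tested rows, and miR164 moved with the replicate number. Its red libraries deviated from the red mean by 0.05, -0.29 and 0.24 on the log2 scale for replicates 1, 2 and 3, and its white libraries from the white mean by 0.03, -0.30 and 0.27. Within the numbers, red stood 1.60, 1.60 and 1.55 times above white. The log2 ratios lay between -0.68 and -0.63, closer to one another than the counting SE of each, which was 0.18 to 0.23. With the replicate number as a block, miR164 passed (log2 fold change -0.66 ± 0.17 SE, edgeR adjusted p = 0.026), in a fit that called 4.83% of tested rows and 2.59% as lower in white.

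miR394 did not share that pattern. Its red libraries deviated by 0.43, -0.42 and -0.01 and its white libraries by 0.11, 0.27 and -0.38. Red stood 2.20, 1.07 and 2.33 times above white within replicates 1, 2 and 3, so nearly all of the difference came from replicates 1 and 3. With the block its log2 fold change was -0.83 ± 0.25 SE and its adjusted p 0.072 by edgeR, which did not pass.

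The ratio of miR164 to miR394 reads needs no scaling between libraries. It was 1.75, 2.52 and 2.73 in red replicates 1, 2 and 3 and 2.41, 1.69 and 4.11 in the white ones. On the log2 scale the red ratio was 1.20 ± 0.34 and the white ratio 1.36 ± 0.64 (SD, n = 3 each), which differ by less than either SD (two-sided exact permutation p = 0.9, adjusted 0.9 over 3 measures). The white libraries held both the lowest and the highest ratio. The difference of 0.16 turned in sign without red replicate 1, to -0.04, and without white replicate 3, to -0.18.

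Counted against microRNA reads instead of all reads, the gap was smaller. miR164 made up 0.0942% ± 0.0159 of microRNA reads in the red part and 0.0693% ± 0.0214 in the white part (SD, n = 3 each; two-sided exact permutation p = 0.2, adjusted 0.3 over 3 measures). On this scale the parts overlapped, since white replicate 3 at 0.0894% (exact binomial 95% interval 0.0736% to 0.108%) lay above red replicate 2 at 0.0764% (0.0634% to 0.0912%). miR394 made up 0.0421% ± 0.0135 in red and 0.0264% ± 0.0041 in white, without overlap (exact permutation p = 0.1, the smallest that 3 libraries against 3 allow, adjusted 0.3). Its nearest libraries were red replicate 2 at 0.0303% (0.0223% to 0.0402%) and white replicate 1 at 0.0297% (0.0211% to 0.0406%). The difference for miR164, -0.0249 percentage points, was -0.0137 without white replicate 2, and that for miR394, -0.0157, was -0.00833 without red replicate 1. The denominator is itself mostly 3 microRNAs, miR396 with 41.0% of microRNA reads over all libraries, miR159 with 24.6% and miR166 with 16.2%.

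The other microRNAs of boundary, meristem and organ polarity mostly had negative values too. The list held 8 names, all present, and 7 of them passed the filter on low counts. In the main edgeR test 1 of the 7 passed as lower in white and 0 as higher, where 0.528% of all tested rows passed as lower. An unadjusted p under 0.05 was found for 3, all lower, and for 6.28% of all tested rows in that direction. Among the 3 were the near-identical miR170 and miR171. The median log2 fold change of the 7 was -0.74, against -0.18 over the 34 tested microRNAs and -0.01 over all tested rows, and 6 of 7 were negative. Tested microRNAs in general were more often lower in white without overlap, in 20.6% against 8.84% of all tested rows. The list was written with earlier results of these data known, so its direction is a description.

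The row that passed was miR166, which acts on HD-ZIP III genes of the meristem and of organ polarity (log2 fold change -0.67 ± 0.12 SE, adjusted p = 0.022 by edgeR). The call was lost without red replicate 1, white replicate 1 or white replicate 3 (adjusted p = 0.058, 0.084 and 0.11), with scaling to the microRNA total (0.22) and with the stricter filter (0.051). miR165, which differs little from miR166 and can share its reads, had 18 to 43 reads per library and a value of -0.45 ± 0.35 SE (adjusted p = 0.65). The 43 reads were in red replicate 3, without which the value was -0.034, and with scaling to the microRNA total it was -0.27.

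miR170 and miR171, near-identical microRNAs that act on GRAS genes of the HAM group in the meristem, had log2 fold changes of -0.83 ± 0.24 SE and -0.74 ± 0.27 SE (edgeR adjusted p = 0.17 and 0.31). Both had their lowest red value in red replicate 2, as miR394 did, with 596 reads of miR170 against 1373 and 1062 and 1521 reads of miR171 against 3604 and 2983. Without that library both passed (edgeR adjusted p = 0.0010 each), while miR394 had an adjusted p of 0.081 and miR164 one of 0.073. With any other single library left out neither passed, and the adjusted p ranged from 0.21 to 0.44 for miR170 and from 0.37 to 0.59 for miR171. With the replicate block it was 0.22 and 0.40. Both passed with no filter on low counts (edgeR adjusted p = 5.7e-05 and 3.9e-05), and miR170 also with library totals (0.036) and by DESeq2 (0.032).

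miR319, which acts on TCP genes that restrain the CUC genes in Arabidopsis, had 176, 99 and 136 reads in red and 34, 95 and 69 in white (log2 fold change -0.83 ± 0.39 SE, adjusted p = 0.44). Its value was -0.48 without white replicate 1 and -1.31 without white replicate 2, and it passed with no filter on low counts (edgeR adjusted p = 0.027). miR172, which acts on AP2-type genes of floral organ identity, had 6 to 27 reads per library and a value of -0.76 ± 0.44 SE (adjusted p = 0.51), which became -0.34 without red replicate 3 and -1.17 without white replicate 3. miR160, which acts on auxin response factors, had 9 to 19 reads and a value of 0.01 ± 0.35 SE (adjusted p = 0.99). miR390, which starts the trans-acting siRNAs that act on other auxin response factors, had 0 to 5 reads per library and was not tested.

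**Figure D3:**
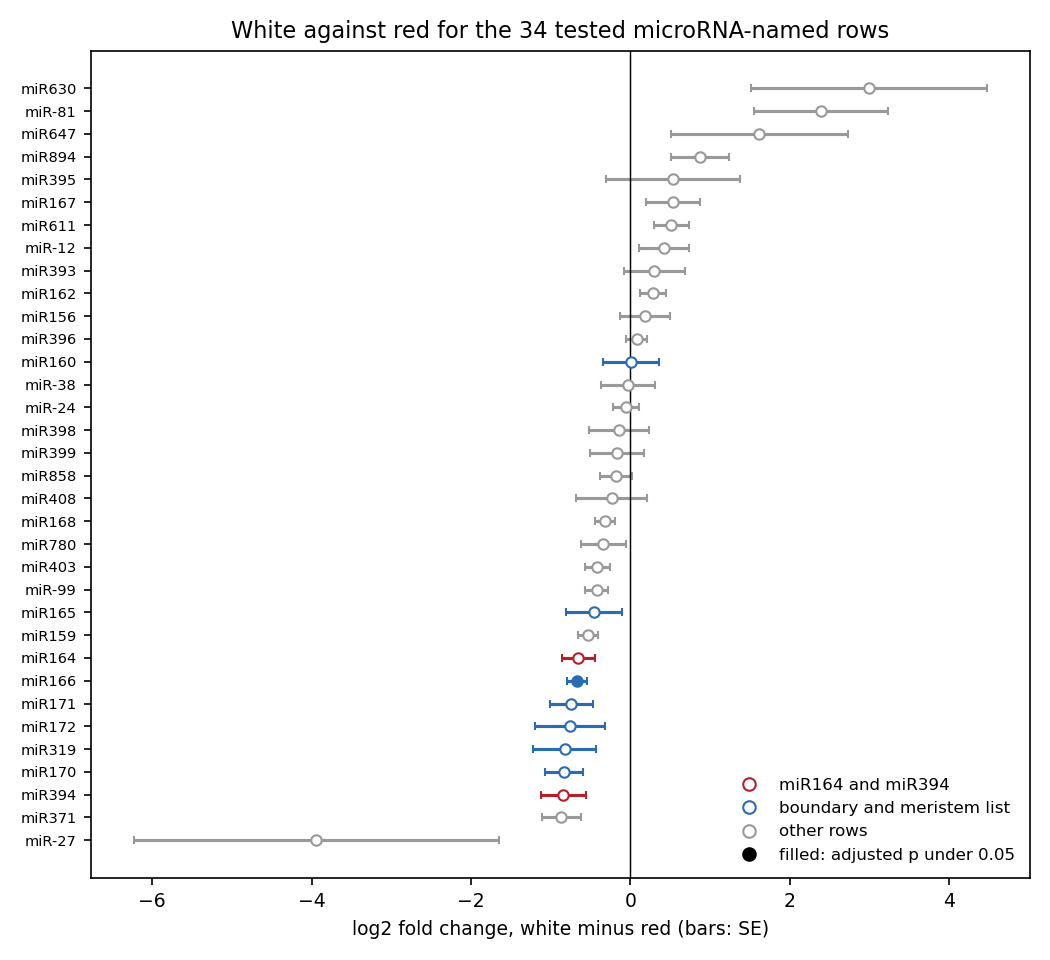
Log2 fold change (white minus red) with its SE for each of the 34 tested microRNA-named rows, with a filled point where the edgeR adjusted p was under 0.05. miR164 (-0.65) and miR394 (-0.84) lie among the boundary and meristem list, whose 7 tested rows have a median of -0.74, and miR166 alone is filled.

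By the difference of their profiles over the 6 libraries, miR164 was most like miR371, miR166 and miR403. The measure is the root mean square difference of log2 CPM after each row was centred on its own mean, and over the other 33 tested microRNAs it was smallest for these, at 0.19, 0.21 and 0.26. miR371 shared with miR164 the lowest value in white replicate 2, with 31 reads against 65 and 71 in the other white libraries. Its mean was 31.6 ± 4.8 CPM for red and 17.2 ± 5.3 CPM for white libraries (SD, n = 3 each; edgeR adjusted p = 0.12, and 0.014 with the replicate block). miR403, which acts on AGO2 transcripts in Arabidopsis, differed by -0.41 ± 0.16 SE on the log2 scale, short of the threshold (adjusted p = 0.29). This was -0.23 without red replicate 3, and also -0.23 when scaled to the microRNA total.

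For miR394 the smallest differences were to miR170, miR171 and miR166, at 0.19, 0.23 and 0.25. These rows shared with miR394 a red replicate 1 that was the highest of all libraries and a red replicate 2 that was the lowest of the red ones. White replicate 3 stood at -0.78 on this centred log2 scale for miR394, and at -0.49, -0.44 and -0.34 for miR170, miR171 and miR166. The likeness rests on 6 libraries that share their depth and scaling, and near-identical rows such as miR170 and miR171 count the same way.

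**Figure D4:**
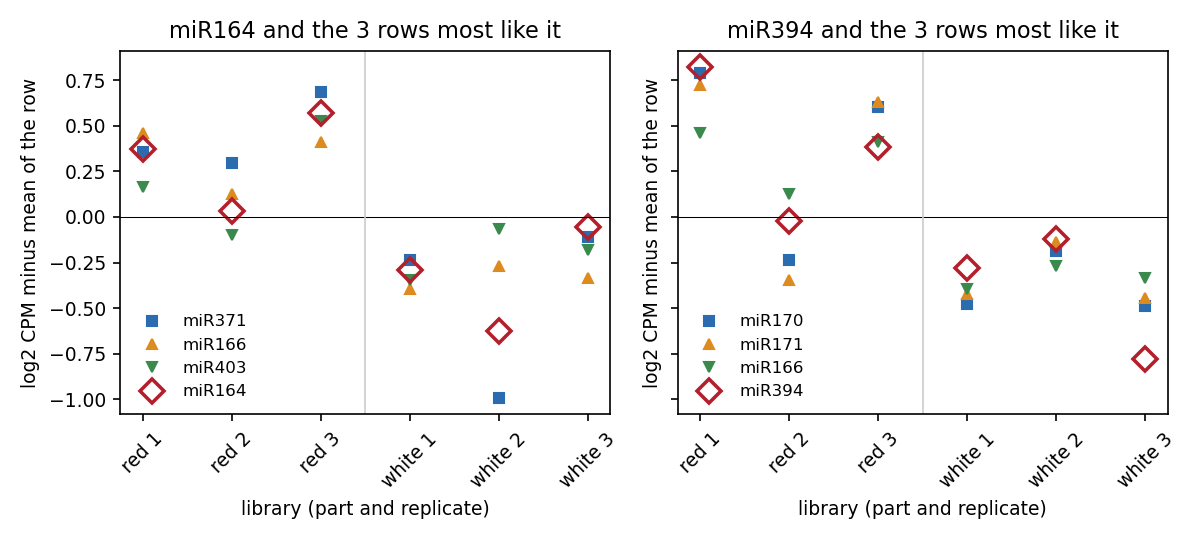
Log2 CPM minus the row's own mean in each of the 6 libraries for miR164 (left) and miR394 (right), as open diamonds, with the 3 tested microRNAs of the smallest root mean square difference. The differences are 0.19 to 0.26 for miR164 and 0.19 to 0.25 for miR394, and replicate 2 is low in both parts for miR164 but in red alone for miR394.

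Both members were lower in white in all 14 settings, that is the main fit and its 13 alternatives. The settings reuse the same libraries, so they are not separate tests of the direction. The scaling moved the size. With library totals the median of all rows was -0.16 and the log2 fold changes were -0.80 for miR164 and -1.02 for miR394. Scaled to the microRNA total, the median of all rows was 0.18 and the members stood at -0.44 and -0.67. Relative to the median of all rows, miR164 was at -0.64, -0.64 and -0.62 with TMM, library totals and the microRNA total, and miR394 at -0.83, -0.86 and -0.85. A change of scaling moves all rows by nearly the same amount, which subtracting the median removes. The likeness of these values is therefore built in and is no test of the scaling.

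**Figure D5:**
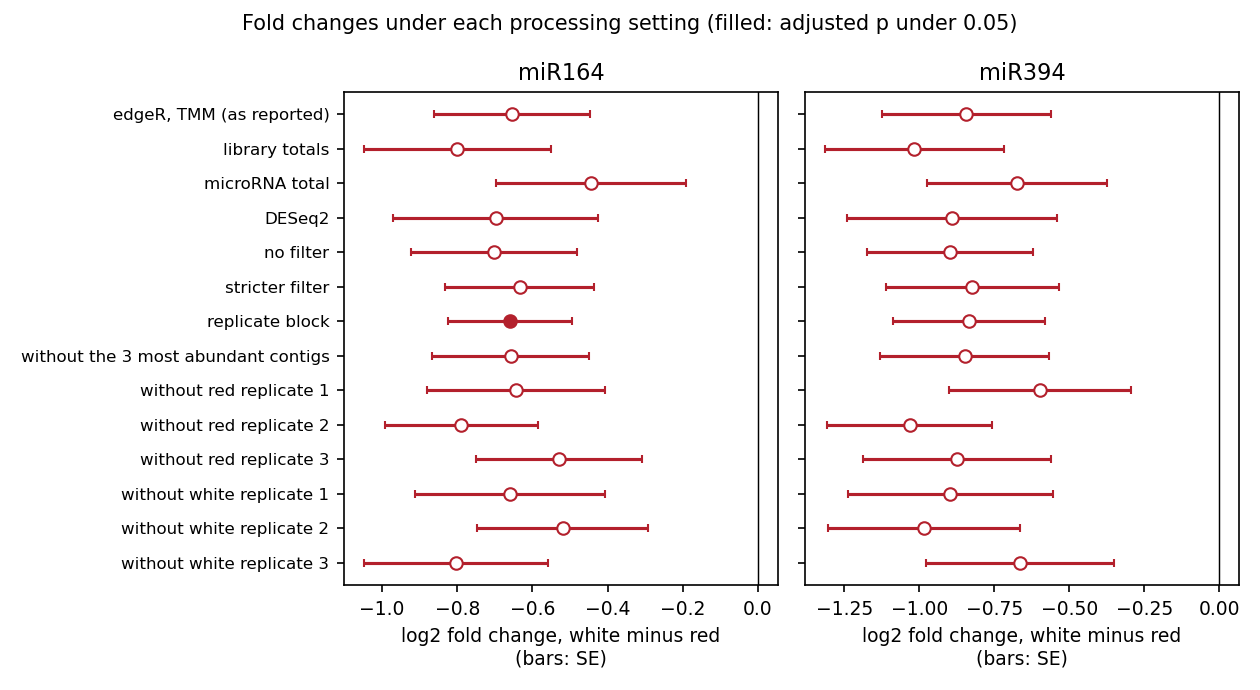
Log2 fold change (white minus red) with its SE for miR164 and miR394 under the main fit and 13 alternatives, with a filled point where the adjusted p was under 0.05. All values lie below 0, from -0.80 to -0.44 for miR164 and from -1.03 to -0.60 for miR394, and the replicate block for miR164 is the only filled point.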

How the data were processed

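The authors deposited 1 table of raw counts, small RNA reads per row in each of 6 libraries. RNA was taken up in Trizol and turned into libraries with a NEBNext kit, per the labels' protocols. The tools cutadapt and Bowtie2 are named in the submitters' processing notes. Their settings, the read lengths counted and the handling of reads with several matches are not given in the sources used here. Reads that match near-identical microRNAs could be split between rows.

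Rows were kept by edgeR's filter with a minimum count of 10, which left 7001 rows, 34 of them microRNAs. Both members passed. The comparison of white with red used the quasi-likelihood test of edgeR 4.0.16 in R 4.3.3, TMM scaling, a robust dispersion and p-values adjusted by Benjamini-Hochberg over all tested rows (threshold 0.05). The SE is the log2 fold change divided by the square root of F. Log2 CPM used a prior count of 2. For shares and the ratio, exact permutation tests (two-sided, scipy 1.17.1) were run. The edgeR fit was tried on simulated counts, and the permutation tests on small sets of made-up values. The DESeq2 fit was not tried in this way. Alternatives were other scalings, DESeq2 1.42.0, other filters (none, or a minimum of 30), the replicate block, the 3 most abundant contigs left out, and each library left out.

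Red and white libraries share replicate numbers in their titles. Deviations from the group means of same-numbered libraries correlated over the tested rows at 0.20, 0.29 and 0.20, all above the limit of 0.1. The numbers were therefore used as pairs in the replicate block, which is an alternative. The other pairings gave -0.19 to 0.01. Deviations from a group mean cancel out within the group, so positive values for same-numbered libraries push the other pairings lower. These are therefore no separate contrast. The main fit has no block and the main permutation tests are unpaired, so their p-values leave this correlation out. No 2 libraries of a part agreed within sampling noise (lowest chi-square per degree of freedom 4.89). The named rows were the members, the list, the 2 rows above and below each member in level and the 3 most like each. The members, the list and the tests were chosen with earlier results of these data known.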

Additional observations from a re-analysis of the deposited data

How the results depend on the processing

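miR164 stayed lower in white and short of the threshold in 12 of 13 alternatives and passed with the replicate block (log2 fold change -0.66, edgeR adjusted p = 0.026). miR394 did so in 13 of 13, with adjusted p-values from 0.072 to 0.55. With 1 library left out, miR164 ranged from -0.80 to -0.52 (adjusted p 0.073 to 0.43) and miR394 from -1.03 to -0.60 (0.081 to 0.55). The differences in share of microRNA reads, white minus red, ranged from -0.0350 to -0.0137 percentage points for miR164 and from -0.0216 to -0.00833 for miR394. The difference in their log2 ratio ranged from -0.18 to 0.46, turning without red replicate 1 (-0.036) and without white replicate 3. With the replicate block, exact paired sign-flip tests cannot go below p = 0.25. Their mean differences equal the unpaired ones by construction, so no direction could change. The 74 changed rows became 153 with library totals, 135 with the microRNA total, 122 with DESeq2, 254 with no filter and 338 with the replicate block, and 35 (without white replicate 3) to 176 (without red replicate 2) with 1 library left out (46 without red replicate 1). Of the boundary and meristem list, 2 of 7 rows passed with library totals, where 153 of all 7001 tested rows passed. With the microRNA total 0 of 7 passed (4 at an unadjusted p under 0.05), against 135 of 7001. DESeq2 called 2 of 8, against 122 of all rows, with no adjusted p for 41080 of 47083. With no filter 4 of 8 passed, against 254 of 47083. The stricter filter gave 0 of 4 (3 unadjusted), against 55 of 2962. With 1 library left out 0 to 3 of 7 passed, the 3 without red replicate 2, where 176 of 7848 rows passed. The share of all rows at an unadjusted p under 0.05 was not counted in these settings. The sign of miR160 turned with library totals (-0.14), DESeq2 (-0.031), no filter (-0.035) and the block (-0.0016) and ranged from -0.22 to 0.17 with 1 library left out. That of miR399 turned with the microRNA total (0.053) and ranged from -0.45 to 0.25, that of miR395 from -0.43 to 1.16 and that of miR-27 from -4.67 to 0.85. Some settings also differ in the number of libraries or rows, and the cause of these shifts was not tested. Depth limits both members, with a counting SE of the same-numbered log2 ratios of 0.18 to 0.23 for miR164 and 0.27 to 0.33 for miR394.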
